A study of Mus musculus with 3 samples.

Results

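The miR-181 family was followed through small RNA libraries of mouse colonic mucosa. Its members were taken by name, as every row of the hairpins miR-181a, miR-181b, miR-181c and miR-181d that the deposited table holds, in any arm or copy. This gave 7 of 471 rows, namely 4 from 5p arms (miR-181a-5p, miR-181b-5p, miR-181c-5p and miR-181d-5p) and 3 from 3p arms (miR-181a-3p, miR-181b-1-3p and miR-181c-3p). There were 3 libraries, 1 per group. The first was mucosa labelled healthy and mir-10b+/+ (WT). The next was mucosa labelled diabetic and global mir-10b-/- (KO). The last was mucosa labelled rescue, from global mir-10b-/- injected with miR-10b-5p mimic (mimic). KO and mimic share the deletion, and WT carries neither deletion nor mimic. Strain, age, the dose and timing of the mimic, a control injection and the number of animals behind each library are not given in the labels or file headers.

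miRNAs are short RNAs cut from both arms of a hairpin precursor. The arm loaded into Argonaute pairs with messenger RNAs through its seed, bases 2 to 8 from the 5′ end, and lowers their output. The miR-181 family is best known in mouse thymocytes, where miR-181a sets the sensitivity of T cell receptor signalling by repressing phosphatases. miR-181b restrains NF-kappaB signalling in endothelium through an importin, and miR-181c enters mitochondria of rat heart cells. For miR-181d, targeting of the DNA repair gene MGMT is known from human glioma. The family is also expressed in brain.

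The mouse genome holds 6 miR-181 hairpins in 3 pairs. On GRCm38, Mir181a-1 (chr1:137966455-137966541, plus strand) and Mir181b-1 (chr1:137966639-137966718) lie 97 bases apart inside an intron of the noncoding transcript Gm4258, and an exon of the noncoding A430106G13Rik on the same strand overlaps both. Mir181a-2 (chr2:38852735-38852810, plus strand) and Mir181b-2 (chr2:38853830-38853918) lie 1019 bases apart, within introns of Nr6a1 but on the opposite strand. Mir181d (chr8:84178716-84178787, minus strand) and Mir181c (chr8:84178873-84178961) lie 85 bases apart in an intron of Nanos3, on the strand of that gene.

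The mature 5p sequences are shown because the family is defined by them, with the seed in capitals (RefSeq, GRCm38.p6, 5′ to 3′).
miR-181a-5p: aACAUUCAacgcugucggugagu
miR-181b-5p: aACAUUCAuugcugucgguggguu
miR-181c-5p: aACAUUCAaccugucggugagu
miR-181d-5p: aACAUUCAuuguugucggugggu

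All 4 have the seed ACAUUCA, so they differ only outside it. Counted from the 5′ end, miR-181b-5p differs from miR-181a-5p by A9U, C10U and A21G and is 1 base longer. miR-181d-5p differs from miR-181b-5p by C12U alone over the 23 bases compared. miR-181c-5p is miR-181a-5p without the base at position 11. Of the 471 rows, 385 could be matched by name to a RefSeq mature sequence. The seed was sought among 341 matched names with a mean of at least 10, and 0 outside the family had it. Whether the authors' counting allowed mismatches is not stated, so a part of the reads of such near-identical arms may have been shared between rows. The 5p arms of both copies of miR-181a are the same sequence, as are those of miR-181b, and cannot be assigned to chromosome 1 or 2.

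The 3p sequences are shown because they tell the copies apart and carry different seeds, again in capitals.
miR-181a-1-3p: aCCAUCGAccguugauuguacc
miR-181a-2-3p: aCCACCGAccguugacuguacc
miR-181c-3p: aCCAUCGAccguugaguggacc
miR-181b-1-3p: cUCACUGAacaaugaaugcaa
miR-181b-2-3p: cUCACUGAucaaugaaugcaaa

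miR-181a-2-3p differs from miR-181a-1-3p by U5C and U16C, of which the first lies in the seed. miR-181c-3p has the seed of miR-181a-1-3p and differs from it by U16G and U19G. The 3p arms of miR-181b differ by A9U over 21 bases and share a seed. The row miR-181a-3p carries no copy number, so its hairpin is not known, whereas miR-181b-1-3p names the chromosome 1 copy. miR-181b-2-3p and miR-181d-3p have no row. Whether reads of the near-identical miR-181b-2-3p were counted in the row miR-181b-1-3p is not known. The hairpins of the chromosome 1 pair are given below in full, with both mature arms in capitals. The row miR-181b-1-3p, the member with the widest span of values, is named for this pair.
Mir181a-1: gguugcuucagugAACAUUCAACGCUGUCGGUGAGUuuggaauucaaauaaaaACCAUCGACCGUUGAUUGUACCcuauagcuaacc
Mir181b-1: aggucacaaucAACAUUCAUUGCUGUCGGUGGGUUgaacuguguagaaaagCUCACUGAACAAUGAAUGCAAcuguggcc

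The values are normalized reads as deposited, and a ratio is a log2 ratio between libraries after adding a pseudocount of 1. The columns sum to 4872446 in WT, 8124898 in KO and 8510085 with mimic. The depth of sequencing is unknown. miR-10b-5p, the check of the labels, was at 18057 in WT, 14 in KO and 469 with mimic. Gut epithelial miRNAs (miR-192, miR-194, miR-215 and the miR-200 family) were present for all 8 listed hairpins and made up 31.7%, 31.6% and 29.0% of the totals. Each group is 1 library. No replicate spread could be estimated, no p-value is given, and each ratio compares these libraries, not the conditions. In bulk tissue, fewer cells of a type and less RNA per cell cannot be told apart.

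miR-181a-5p was the most abundant member in all 3 libraries and the one with the widest swing among the 5p arms. Its value was 7924 in WT, 14379 in KO and 4051 with mimic. KO was thus the high library and mimic the low one, 3.55-fold apart. As a share of all normalized reads it was 0.163% in WT, 0.177% in KO and 0.0476% with mimic. It was the 67th most abundant row in WT, the 57th in KO and the 86th in mimic.

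miR-181b-5p, transcribed with miR-181a from either pair, was at 2562 in WT, 2460 in KO and 1474 with mimic. As deposited, WT and KO were within 1.04-fold of each other and mimic was the low library, whereas with equal totals the log2 ratio of KO over WT was -0.80. miR-181c-5p was at 2788 in WT, 3492 in KO and 3659 with mimic, a span of 1.31-fold. miR-181d-5p, its neighbour on chromosome 8, was at 2574 in WT, 2296 in KO and 2338 with mimic. Its span was 1.12-fold as deposited, the narrowest of the members on that scale, and 1.92-fold as a share of the library totals, where miR-181a-3p had the narrowest at 1.21-fold. Both 5p arms of the chromosome 8 pair spanned a narrower range than miR-181a-5p or miR-181b-5p on both scales.

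The 3p arms were less abundant. miR-181c-3p was at 644 in WT, 697 in KO and 890 with mimic. miR-181a-3p was at 558 in WT, 790 in KO and 804 with mimic, so as deposited it did not share the low mimic value of its own 5p arm. As a share of the totals it was 0.0115%, 0.00972% and 0.00945%, with mimic lowest. Its span on that scale was 1.21-fold, beside 3.72-fold for miR-181a-5p. miR-181b-1-3p was the least abundant member and had the widest span of all, 4.04-fold, at 95 in WT, 49 in KO and 198 with mimic. Its order of libraries was the reverse of that of miR-181a-5p, with KO lowest and mimic highest.

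**Figure D1:**
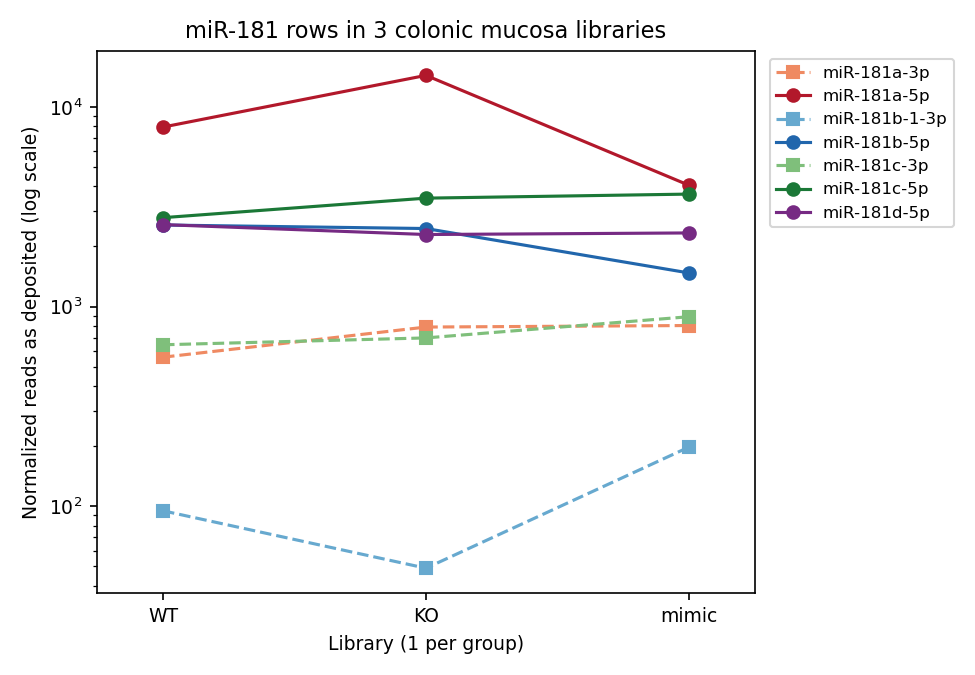
Normalized reads as deposited (log scale) of the 7 miR-181 rows in the WT, KO and mimic libraries, 1 point per library, with circles and solid lines for 5p arms and squares and dashed lines for 3p arms. miR-181a-5p runs from 7924 to 14379 to 4051, miR-181b-1-3p runs the other way from 95 to 49 to 198, and miR-181d-5p lies between 2296 and 2574 as deposited.

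The order of levels was the same at the top in each library, with miR-181a-5p first and miR-181c-5p second. In WT, miR-181d-5p and miR-181b-5p followed at nearly the same level, with a ratio of 1.00 between them. In KO their order was exchanged, at a ratio of 0.933, and in mimic miR-181d-5p was 1.59 times miR-181b-5p. The distance of miR-181a-5p to miR-181c-5p was 2.84-fold in WT, 4.12-fold in KO and 1.11-fold in mimic, where the leading pair was close to level. Without replicates it cannot be said which of these neighbours differ beyond library spread.

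The 5p arms share a seed, so their normalized reads were summed. Rows without a matched sequence could not be searched for that seed. The summed 5p rows were 15848 in WT, 22627 in KO and 11522 with mimic. The log2 ratio of the sum was 0.51 (KO over WT), -0.97 (mimic over KO) and -0.46 (mimic over WT). As deposited, most of each difference was that of miR-181a-5p, since the sum of the other 5p rows was 7924 in WT, 8248 in KO and 7471 with mimic. For KO and WT this depends on the scaling. As a share of the totals, the 5p sum was 0.325% in WT and 0.278% in KO. On that scale miR-181a-5p was at 0.163% and 0.177%, and the other 5p rows at 0.163% and 0.102%.

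The make-up of that sum does not depend on how libraries are scaled. miR-181a-5p took 50.0% of it in WT, 63.5% in KO and 35.2% with mimic. miR-181c-5p took 17.6%, 15.4% and 31.8% in the same order. miR-181b-5p took 16.2%, 10.9% and 12.8%, and miR-181d-5p took 16.2%, 10.1% and 20.3%. The chromosome 8 arms (miR-181c-5p and miR-181d-5p) together held 33.8% in WT and 25.6% in KO, and they were the larger part in mimic with 52.0%. With miR-181a-5p left out of the sum, miR-181c-5p still had its highest share in mimic, at 35.2%, 42.3% and 49.0%, and miR-181b-5p its lowest, at 32.3%, 29.8% and 19.7%.

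**Figure D2:**
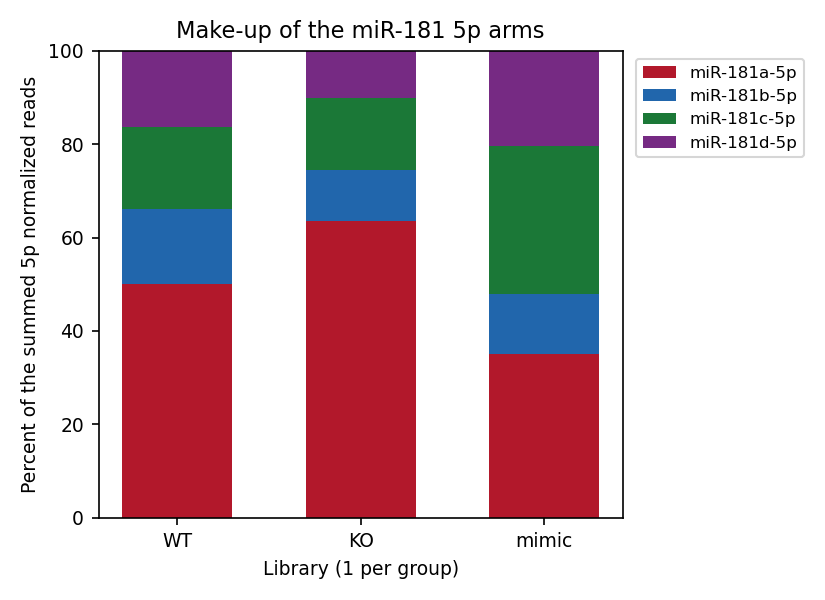
Share of each 5p arm in the summed 5p normalized reads of the family (percent, stacked bars from 0 to 100) in the WT, KO and mimic libraries. The miR-181a-5p segment is 50.0%, 63.5% and 35.2%, and the miR-181c-5p and miR-181d-5p segments together reach 52.0% in mimic.

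KO over WT sets the mir-10b deletion beside the wild type, with the diabetic label differing at the same time. No member was 2-fold apart: 0 of 7 rows were at least 2-fold higher and 0 were at least 2-fold lower, beside 21.2% and 9.64% of the 415 rows with a mean of at least 10. All 7 members pass that filter. miR-181a-5p had the highest ratio of the family, 0.86 (1.81-fold higher), and miR-181b-1-3p the lowest, -0.94 (1.94-fold lower). Between them stood miR-181a-3p at 0.50, miR-181c-5p at 0.32, miR-181c-3p at 0.11, miR-181b-5p at -0.06 and miR-181d-5p at -0.16. The median of the members was 0.11 and that of all 415 rows 0.13. Among the 415 ratios, that of miR-181a-5p ranked 100th from the top and that of miR-181b-1-3p 47th from the bottom.

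Mimic over KO sets a knockout library with injected mimic beside a knockout library without it, with the label differing at the same time (rescue and diabetic). Of the 7 rows, 1 was at least 2-fold lower, miR-181a-5p, beside 28.2% of all rows, and 1 was at least 2-fold higher, miR-181b-1-3p, beside 13.3%. miR-181a-5p was 3.55-fold lower in mimic (log2 ratio -1.83) and ranked 64th from the bottom of 415 rows. miR-181b-1-3p was 4.04-fold higher (1.99) and ranked 19th from the top. miR-181b-5p was at -0.74, in the direction of miR-181a-5p but within the 2-fold limit. The remaining 4 rows lay between 0.03 and 0.35. The median of the members was 0.03, against -0.31 for all rows, and 5 of the 7 lay above the latter.

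Mimic over WT compares the injected knockout library with the wild type library. Here 1 of 7 rows was at least 2-fold higher, miR-181b-1-3p at 1.05 (2.08-fold), beside 19.8% of all rows. At least 2-fold lower were 0 of 7, beside 25.8% of all rows, although miR-181a-5p came close at -0.97 (1.96-fold lower) and miR-181b-5p was at -0.80. The remaining rows were miR-181a-3p at 0.53, miR-181c-3p at 0.47, miR-181c-5p at 0.39 and miR-181d-5p at -0.14. The median was 0.39 for the members and -0.14 for all rows. The comparisons share libraries (each library enters a pair of them), so their ratios are not independent.

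**Figure D3:**
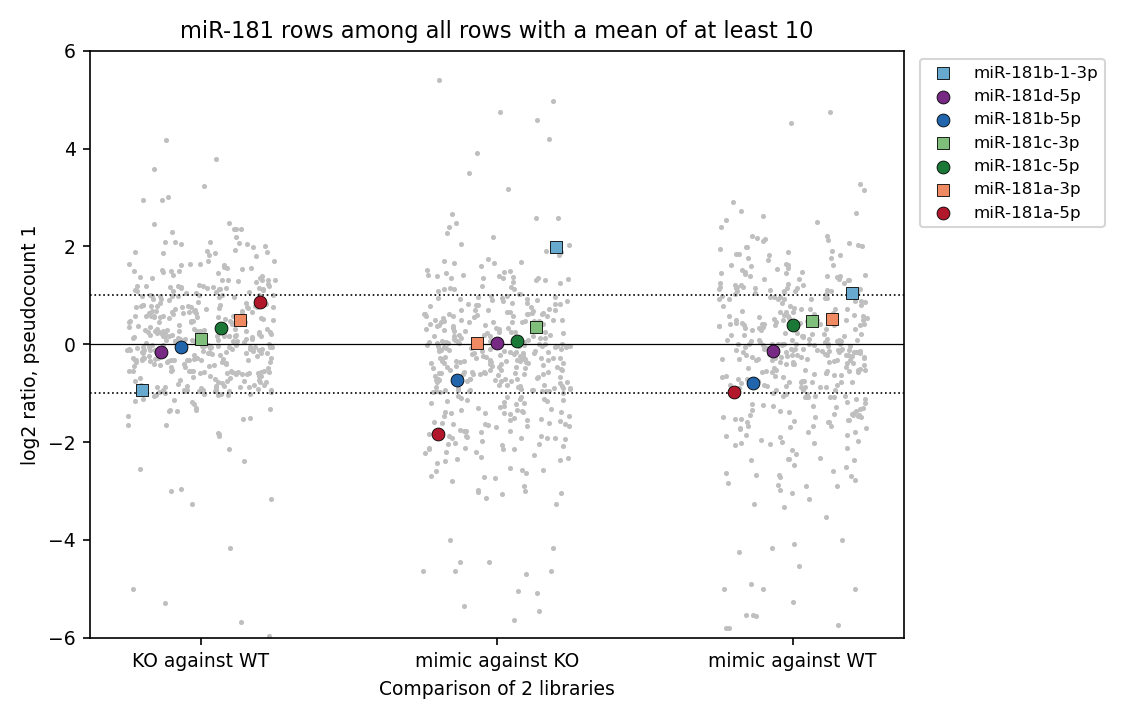
log2 ratios (pseudocount of 1) of the 7 miR-181 rows (coloured, circles for 5p and squares for 3p) among the other rows with a mean of at least 10 (grey) in the 3 comparisons, with dotted lines at the 2-fold limit and sideways position only for legibility. Rows beyond 6 on this scale (1, 4 and 1 in the order shown) are not drawn, and miR-181a-5p (-1.83) and miR-181b-1-3p (1.99) are the members past the limit in mimic over KO.

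The scaling of the libraries decides the sign of several small ratios. Scaling each library to the same total adds -0.74 to each KO over WT ratio on the log2 scale, -0.07 to each mimic over KO ratio and -0.80 to each mimic over WT ratio. Median-of-ratios factors add -0.15, 0.29 and 0.14. Under equal totals the KO over WT ratio of miR-181a-5p was 0.12 and that of miR-181b-1-3p was -1.67, whereas miR-181a-3p turned to -0.24, miR-181c-5p to -0.41 and miR-181c-3p to -0.62. miR-181b-5p was then at -0.80 and miR-181d-5p at -0.90. In mimic over KO, miR-181a-5p was at -1.89 with equal totals and -1.54 with median-of-ratios factors, and miR-181b-1-3p at 1.92 and 2.28, so both stayed past 2-fold. In mimic over WT with equal totals, miR-181a-5p was at -1.77, miR-181b-5p at -1.60, miR-181d-5p at -0.94 and miR-181b-1-3p at 0.25. Relative to the median of all rows, miR-181a-5p stood at 0.73 (KO over WT), -1.52 (mimic over KO) and -0.83 (mimic over WT). A constant added to every ratio leaves such a value as it is, but taking the median row as reference is itself a choice. It gives a place among the rows, not an amount of change. On the same relative scale miR-181b-1-3p stood at -1.07, 2.30 and 1.19.

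**Figure D4:**
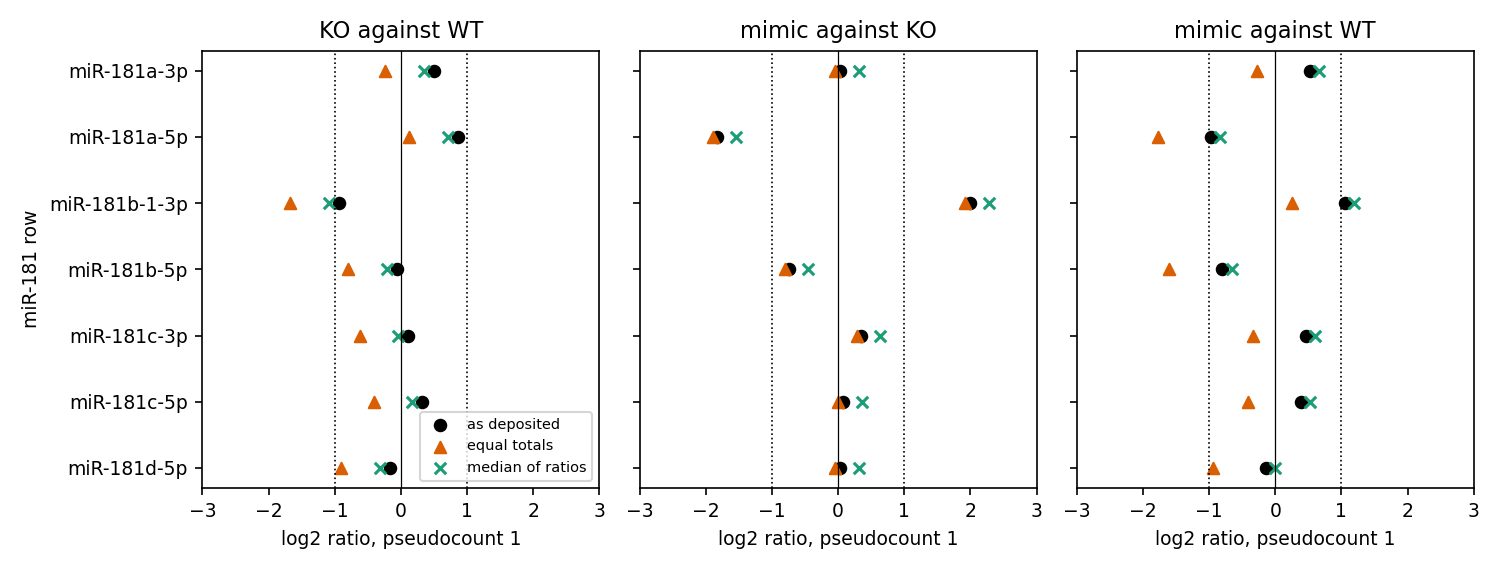
log2 ratios (pseudocount of 1) of each miR-181 row in the 3 comparisons with values as deposited (circles), with equal library totals (triangles) and with median-of-ratios factors (crosses), with dotted lines at the 2-fold limit. In mimic over KO the marks for miR-181a-5p stay below -1 and those for miR-181b-1-3p above 1, while in KO over WT miR-181a-3p moves from 0.50 to -0.24 with equal totals.

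The arms of a hairpin were compared within each library, a measure that scaling leaves nearly untouched. miR-181a-3p made up 6.58% of the reads of both arms in WT, 5.21% in KO and 16.6% with mimic. miR-181b-1-3p, whose 5p partner can come from either copy, made up 3.58%, 1.95% and 11.8%. miR-181c-3p made up 18.8%, 16.6% and 19.6%. The share of the 3p arm was highest in mimic and lowest in KO for each of the 3 pairs, with a wide span for miR-181a and miR-181b and a narrow one for miR-181c.

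On the log2 scale, the 3p over 5p ratio of miR-181b was 2.73 higher in mimic than in KO, 6.64-fold, and ranked 5th from the top among the 145 hairpin pairs with both arms at a mean of at least 10. For miR-181a it was 1.85 higher, 3.61-fold, ranking 23rd. For miR-181c it was 0.28 higher, 1.22-fold, ranking 64th. Thus 2 of 3 family pairs were past 2-fold in this direction, as were 26.9% of all 145 pairs. In the other direction stood 0 family pairs and 22.1% of all pairs, while the median change over those pairs was 0.11. The filter is on the mean over libraries, so an arm can be at or near 0 in a single library. miR-181b-1-3p was at 49 in KO. Of the pairs ranked above miR-181b, miR-34c-3p and miR-1843b-3p were at 0 in KO. The ranks and shares include such pairs. Against WT, the mimic arm ratio was 1.85 higher for miR-181b, 1.49 higher for miR-181a and 0.07 higher for miR-181c. In that comparison 17.2% of pairs were at least 2-fold higher and 33.8% at least 2-fold lower, and the median change was -0.39. In KO over WT, none of the 3 pairs was past 2-fold, at -0.88 for miR-181b, -0.36 for miR-181a and -0.21 for miR-181c. Over all pairs in that comparison, 35.2% were past 2-fold downwards and 14.5% upwards.

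**Figure D5:**
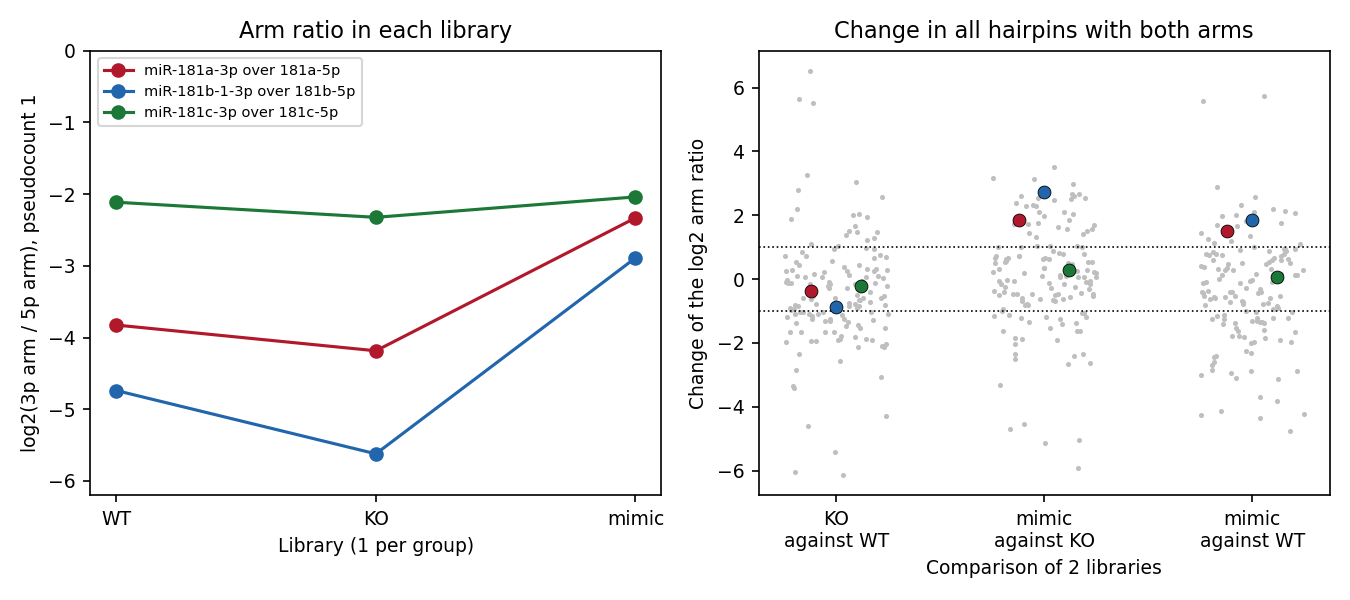
Left, the log2 ratio of 3p to 5p arm (pseudocount of 1) of miR-181a, miR-181b and miR-181c in each library; right, its change between libraries for these pairs (coloured) among all 145 hairpin pairs with both arms (grey), with dotted lines at the 2-fold limit. From KO to mimic the miR-181b pair differs by 2.73, the miR-181a pair by 1.85 and the miR-181c pair by 0.28.

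Rows with a pattern like that of miR-181a-5p were sought among 295 other rows with a mean of at least 100, by the distance between their log2 ratios for KO over WT and mimic over KO. This measure rests on 3 libraries and a nearness in it is a description only. The nearest was miR-423-3p, at 791 in WT, 1331 in KO and 390 with mimic, at a distance of 0.12. It was followed by miR-361-3p (distance 0.17), by miR-151-3p (0.20), by let-7b-5p (0.21), a member of the let-7 family that restrains proliferation, and by miR-322-5p (0.23). let-7b-5p was at 20853 in WT, 33448 in KO and 8691 with mimic. The nearest family member, miR-181b-5p, lay at 1.42, with 97 of the 295 rows closer to miR-181a-5p than it was. miR-181b-1-3p was the farthest member at 4.22, with 289 rows closer.

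A list of miRNAs that regulate lymphocytes or immune signalling was set beside the family, with rows for 26 of its 27 names. In KO over WT, 11 of its 43 rows with a mean of at least 10 were at least 2-fold higher (25.6%, beside 21.2% of all rows) and 4 at least 2-fold lower (9.30%, beside 9.64%), with a median of 0.17. In mimic over KO, 7 rows were higher (16.3%, beside 13.3% of all rows), 12 were lower (27.9%, beside 28.2%), and the median was -0.34. In mimic over WT, 8 rows were higher (18.6%, beside 19.8% of all rows), 8 were lower (18.6%, beside 25.8%), and the median was 0.18. Over all rows, the medians given above were 0.13, -0.31 and -0.14. Within the list, miR-150-5p, a miRNA of mature lymphocytes, was at 1187 in WT, 613 in KO and 410 with mimic. miR-155-5p, which rises in activated lymphocytes and macrophages, was at 605, 693 and 422. miR-146a-5p, a brake on NF-kappaB signalling, was at 9351, 20555 and 12452. These named rows were each lower in mimic than in KO, and other rows of the list went the other way. For example, miR-29a-3p was at 101418, 95703 and 255114, and miR-142a-5p at 31674, 14200 and 47347. The most abundant row of the list, miR-21a-5p, was at 319136, 1360772 and 626341.

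Markers of other cell types present in mucosa also differed between libraries. White blood cell miRNAs (7 of 7 listed hairpins present, miR-146a-3p listed at 0 in KO) summed to 51695 in WT, 46472 in KO and 68027 with mimic. This was 1.06%, 0.572% and 0.799% of the totals, so the highest library depends on the scaling. Without its most abundant row, miR-142a-5p, the list summed to 20021, 32272 and 20680 as deposited. The low KO value of the deposited sum thus came from that row. Sums without the most abundant row are given as deposited throughout, and their order can also depend on the scaling. Endothelial miR-126a, both arms together, was at 59834 in WT, 77948 in KO and 122589 with mimic, which was 1.23%, 0.959% and 1.44% of the totals. Smooth muscle miRNAs (5 of 5 present) made up 11.8%, 13.1% and 26.4% of the totals. Their most abundant row, miR-143-3p, was at 294225 in WT, 954512 in KO and 1655929 with mimic. Without it the list summed to 279332, 106795 and 592430, with KO lowest. Endocrine miRNAs (2 of 2) summed to 97230, 123404 and 63559, which was 1.996%, 1.52% and 0.747% of the totals. Without miR-375-3p they summed to 4032, 8089 and 8802. Fibroblast and mesenchyme miRNAs (3 of 3) summed to 71469, 85250 and 62963, which was 1.47%, 1.05% and 0.740% of the totals, and to 36878, 44890 and 30511 without miR-199b-3p. Neuronal miRNAs (5 of 5) summed to 1974, 1925 and 1204. Without miR-128-3p they summed to 1111, 883 and 941, where mimic was no longer the lowest. Red blood cell miRNAs (2 of 3) summed to 1961, 1583 and 2951, which was 0.0402%, 0.0195% and 0.0347% of the totals. Without miR-451a they summed to 346, 734 and 787, where KO was no longer the lowest. The part of these cell types in the miR-181 values was not tested.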

How the data were processed

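Small RNA libraries of total RNA from colonic mucosa (TruSeq small RNA kit, single-end reads of 50 bases on an Illumina HiSeq, per the labels' protocols) were available for 3 groups, 1 library each. The deposited values are a score, normalized miRNA reads per mature miRNA rounded to whole numbers by the authors, per the file headers. A further pair of columns of unit other holds the authors' differences between libraries, per the file headers, and was not used. The submitters' processing notes name the build mm10. The identity of the aligner, counter, miRNA reference and normalization is not given in the sources used here. Low values 1 apart occurred in every library (30, 19 and 11 such pairs up to 50) and no step giving back whole reads was established, so depth and counting error are unknown.

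Python 3.11.15 and pandas 2.3.3 were used. Rows with a mean below 10 were removed (56 of 471), a pseudocount of 1 was added, and log2 ratios were called at 2-fold. The counting was tested on simulated data with changes set in advance and no spread between libraries beyond counting noise. This checks the code, not how far the 2-fold calls can be trusted. Mature and hairpin sequences came from RefSeq (GRCm38.p6), matched by name for 6 of the 7 members, and intron positions from GENCODE M21. Arms were paired by hairpin name. The text names every family row, the check miR-10b-5p, the 5 rows nearest to miR-181a-5p and the most abundant or best known rows of lists. The members and lists were chosen with earlier results of these data known. Alternatives were other scalings, pseudocounts, filters, a 1.5-fold limit and the more abundant arm only. Sums of marker lists without their most abundant row were added after seeing the data.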

Additional observations from a re-analysis of the deposited data

How the results depend on the processing

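With equal totals, and with equal totals that leave out miR-10b, the log2 ratio of the summed 5p rows became -0.22 and -0.23 in KO over WT, -1.04 and -1.04 in mimic over KO, and -1.26 and -1.27 in mimic over WT. The median of the members became -0.62 and -0.63, -0.041 and -0.041, and -0.41 and -0.42 in the same order. Members at least 2-fold lower became 1 in KO over WT and 2 with mimic over WT, and members at least 2-fold higher became 0 in mimic over WT, under both. Median-of-ratios factors gave a KO over WT median of -0.038 and 1 member lower. With only the more abundant arm, the median was -0.36 in mimic over KO and -0.47 in mimic over WT, and 0 members were higher in either, since miR-181b-1-3p is left out. A pseudocount of 10 left 0 members higher in mimic over WT. A 1.5-fold limit gave 1 higher and 1 lower in KO over WT, 2 lower in mimic over KO (the summed 5p ratio of -0.97 is then past the limit) and 2 lower in mimic over WT. For equal totals and median-of-ratios factors the changes follow from the constant added to every ratio. Among 315 recomputed values, 0 ratios past 2-fold in the main setting changed sign. Most of the 315 could not do so, being counts, shares or ratios within 2-fold. Filters and the 1.5-fold limit leave a single ratio as it is. The pseudocounts moved no arm ratio across the limit.

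Over all rows, the 88 higher and 40 lower in KO over WT (68.8% higher) became 30 and 141 (17.5%) with equal totals, 71 and 61 (53.8%) with median-of-ratios factors, 95 and 75 (55.9%) without a filter, 58 and 18 with a mean of at least 100, and 138 and 89 at 1.5-fold. For mimic over KO, 55 and 117 (32.0%) became 77 and 100 (43.5%) with median-of-ratios factors and 95 and 168 at 1.5-fold. For mimic over WT, 82 and 107 (43.4%) became 30 and 194 (13.4%) with equal totals. No paired analysis was possible because each group has 1 library, and for the same reason no library could be left out. Unknown depth limits miR-181b-1-3p most, since its values are the lowest of the family.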

Other observations

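In WT, the value of miR-181a-5p equalled the sum of miR-181b-5p, miR-181c-5p and miR-181d-5p exactly, at 7924 each. In KO it was 14379 against 8248, and in mimic 4051 against 7471.

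The spread of ratios among arms with 1 seed was set beside other seed families, a description chosen after seeing the data. Among rows with a RefSeq sequence and a mean of at least 10, 12 seeds had 3 or more rows. The miR-181 5p rows spanned 1.02 on the log2 scale for KO over WT, 1.89 for mimic over KO and 1.36 for mimic over WT. The median span over the 12 families was 1.51, 1.39 and 1.43. In mimic over KO, the miR-181 span ranked 5th, after the miR-25/miR-92 seed at 4.08, let-7 and miR-98 at 2.45, the miR-200b/miR-429 seed at 2.20 and the miR-15/miR-16 seed at 2.09. At the other end, miR-29a-3p, miR-29b-3p and miR-29c-3p spanned 0.04 in that comparison. Families with more rows can reach wider spans, and rows with no matched sequence are missing from these families.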
